A study of Mus musculus with 6 samples.

Results

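The constitutive proteasome is described here through 36 genes: the 7 alpha and 7 beta subunits of the 20S core, 6 ATPase and 12 non-ATPase subunits of the 19S regulatory particle, and 4 activator genes. The genes were taken by symbol from a list that left out the interferon-inducible catalytic subunits, and all 36 were present among the 24972 gene rows of the table. The values came from bulk RNA sequencing of cardiomyocytes from mice of the MX1gfp genotype, a reporter allele at an interferon-stimulated gene that both groups carried. Cells of 3 mice injected intraperitoneally with phosphate buffered saline (vehicle) were compared with cells of 3 mice given a single injection of doxorubicin at 25 mg/kg, an anthracycline that poisons topoisomerase II and is toxic to the heart. Hearts were collected 48 h after the injection in both groups. Ventricular myocytes were enriched by gravity settling after collagenase digestion and were not sorted, and the labels give neither age nor sex.

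The proteasome degrades proteins tagged with ubiquitin. Its 20S core is a barrel of alpha rings, which gate the entrance, around beta rings, which hold the proteolytic sites; the 19S particle binds the ubiquitin chain, removes it, unfolds the substrate with a ring of ATPases and threads it into the core. Activators such as PA28 and PA200 can cap the core in place of the 19S particle. In heart muscle the proteasome turns over sarcomeric and damaged proteins, and transcription factor NFE2L1 is known to raise the transcription of many subunit genes together when proteasome capacity falls short.

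No proteasome gene passed the test when all 6 libraries counted equally, but in the values as deposited 33 of the 36 had a lower mean log2 level after doxorubicin and 3 (Psmc1, Psmd4 and Psmd11) a higher one, while with libraries scaled to equal totals 15 were lower and 21 higher. With limma on log2(normalized count + 1) and Benjamini-Hochberg adjustment over 12477 genes, 0 of 36 members and 0% of all genes tested passed at a threshold of 0.05, and the lowest adjusted value of a member was 0.0859. At an unadjusted p under 0.05 the counts were 9 of 36 members, against 35.9% of all genes. A negative difference was found in 50.4% of all genes and a positive one in 49.6%. In 16 members all 3 doxorubicin values lay below all 3 vehicle values, against 22.6% of all genes, and in 0 members they lay above, against 19.2%. Among the 5006 genes with a mean of at least 250, a range that holds all members, 3003 had a negative difference. Without overlap, 33.7% of them were lower and 17.2% higher. The median log2 difference of the members was -0.25, beside -0.005 for all genes tested and -0.13 for those 5006 genes.

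The count of genes past the test rested on doxorubicin replicate 1, which lay near the vehicle libraries, with Spearman correlations across genes of 0.977 to 0.982 against 0.860 to 0.914 for the other doxorubicin libraries. Without it, 8 members passed limma's test with Benjamini-Hochberg adjustment, and all 8 were lower: Psma1, Psmb2, Psmb5, Psmb6, Psmb7, Psmd3, Psme1 and Psme4. In that comparison 41.1% of all genes passed, 21.8% as lower and 19.3% as higher. With limma weighting the libraries by their fit, 6 members passed (Psma1, Psmb2, Psmb7, Psmd3, Psme1 and Psme4), all lower, against 34.2% of all genes in either direction and 18.6% as lower. Without doxorubicin replicate 1, 18 members were lower without overlap, against 32.9% of all genes, and 1, Psmd4, was higher, against 31.6%.

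The direction of the small differences depended on how libraries were scaled. Equal totals moved the median of all genes to 0.29 and that of the members to 0.047. The members' median relative to all genes was -0.25 under both scalings. It could hardly change, because equal totals shifts all genes by nearly the same amount. After quantile normalization the members' median was -0.14, or -0.11 relative to all genes. The 18 members that turned positive at equal totals were Psma2, Psma3, Psma5, Psma6, Psma7, Psmb3, Psmb4, Psmc2, Psmc3, Psmc4, Psmc5, Psmd1, Psmd2, Psmd7, Psmd13, Psmd14, Psme2 and Psme3. At equal totals 2 members, Psmb2 and Psmb7, were lower without overlap (10.1% of all genes) and 1, Psmc2, was higher (36.7%). After quantile normalization 9 members were lower without overlap (21.6% of all genes) and 0 higher (17.9%), and 27 of 36 had a negative difference. All values below are as deposited.

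**Figure D1:**
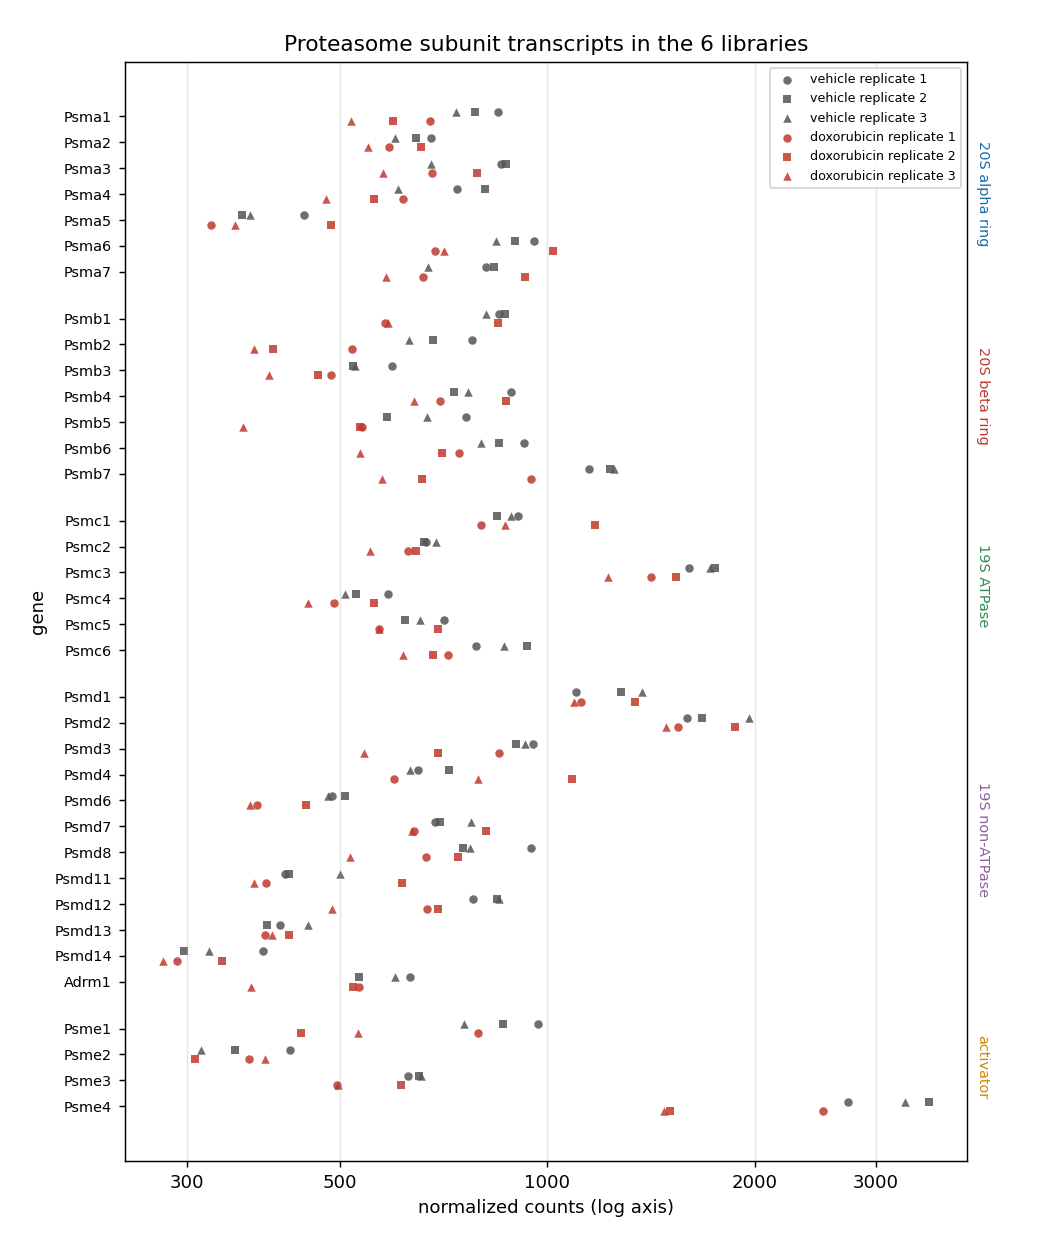
Normalized counts (x axis, log scale) of the 36 proteasome genes (y axis, by subunit class) in the 6 libraries; gray symbols are vehicle and red symbols doxorubicin libraries, and the shape gives the replicate. In 16 genes all red symbols lie to the left of all gray ones, with the widest gap between groups at Psmb7 and Psmb2, and in Psmd4, Psmc1 and Psmd11 the red square (doxorubicin replicate 2) stands to the right of every gray symbol.

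Totals of normalized counts lay between 7217949 and 7500386 with vehicle and between 5410780 and 6498373 with doxorubicin. The reads behind them, estimated from the spacing of low values, were 7.71e+06 to 1.14e+07 and 3.67e+06 to 6.17e+06. A member rested on between 188 estimated reads (Psmd14, doxorubicin replicate 3) and 4308 (Psme4, vehicle replicate 1). All 10 cardiomyocyte markers had negative differences, 6 of them without overlap, and their sum was 700062 to 871296 in vehicle and 179918 to 648031 in doxorubicin libraries, where replicate 1 had the highest value. Of 10 macrophage markers 9 were positive, with sums of 2515 to 2723 and 4122 to 15034. All 4 neutrophil markers tested were positive, with sums of 10.5 to 21.7 and 55.0 to 562. Sums of the 8 endothelial markers were 14379 to 18692 and 23542 to 31483, those of the 8 fibroblast markers 6579 to 8536 and 9090 to 24057, and those of the 7 mural markers 9763 to 14505 and 11211 to 13253. The 4 atrial markers summed to 87.0 to 167 and 133 to 571, and Bmp10 was listed at 0 in libraries of both groups. The 6 lymphocyte markers summed to 12.6 to 29.5 and 3.61 to 51.4, and each was listed at 0 in at least 1 doxorubicin library. In bulk samples fewer cells of a type and less RNA per cell cannot be told apart, and the part of these shifts in the proteasome values was not tested.

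Short promoter stretches of 9 members are shown because several of the lower members share a pattern there. In the RefSeq promoters of GRCm38.p6, which run from 250 bases before to 50 bases after the gene start, 30 of 36 members had an entry; Psmb1, Psmb2, Psmb7, Psmc3, Psmd3 and Psmd7 did not. The pattern TGACNNNGC, the core of the antioxidant response element that the NFE2L1 family is known to bind, was searched on both strands and occurred in 6 members and in 12.4% of 32851 promoters. Each stretch is written 5′ to 3′ on the strand named, with the pattern in capitals.
Psmb5 (chr14:54618024-54618052, minus strand): cgtgaagttgTGACGTCGCggcgttgcca
Psmb6 (chr11:70525338-70525366, plus strand): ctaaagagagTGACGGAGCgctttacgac
Psmc6 (chr14:45329587-45329615, minus strand): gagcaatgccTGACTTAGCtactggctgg
Psmd12 (chr11:107479278-107479299, minus strand): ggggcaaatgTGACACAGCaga
Adrm1 (chr2:180171416-180171444, plus strand): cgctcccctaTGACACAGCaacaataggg
Psme4 (chr11:30771758-30771786, minus strand): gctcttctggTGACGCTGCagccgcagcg
Measured from the start that the promoter table uses, the most upstream base of the pattern is 9 bases before it in Psmb6, 47 in Psmb5, 162 in Adrm1, 227 in Psmc6 and 247 in Psmd12, and in Psme4 the pattern begins 7 bases before the start and runs 2 bases into the transcript. The gene record of Psmb6 used for coordinates below begins further upstream, at 70525324, so in Psmb6 the pattern lies inside that record.

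All 6 genes with the pattern had lower values without overlap after doxorubicin, with log2 differences from -0.84 (Psme4) to -0.32 (Adrm1) and a median of -0.41. Among the 24 other members with a promoter entry, 6 were lower without overlap and the median was -0.12. The split depended on scaling. At equal totals the groups of all 6 genes with the pattern overlapped, and the only members lower without overlap, Psmb2 and Psmb7, have no promoter entry. After quantile normalization the groups of Psmb6, Adrm1 and Psme4 overlapped. The pattern did not go with lower values over the whole table: 22.6% of the 1671 tested genes that hold it and 23.2% of the 8134 that lack it were lower without overlap. Of the other proteasome and ubiquitin genes described further on, 4 of 7 with the pattern and 6 of 21 without it were lower without overlap. This comparison was made after the values had been seen, and it describes letters in a window, not binding.

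A second pattern, a pair of GAAA blocks with any 2 bases between them, part of the element bound by interferon regulatory factors, is shown for the 3 members that hold it, because interferon-inducible subunits are compared with the members below. It occurred in 3.44% of promoters.
Psmb3 (chr11:97703261-97703290, minus strand): atggaaagcgGAAAGTGAAAagtcactgtg
Psmd4 (chr3:95042675-95042704, plus strand): aggcgccacaGAAATGGAAAggttggttat
Psme1 (chr14:55578493-55578522, minus strand): agcgggaaggGAAAGCGAAAgcacagctcg
The 3 genes had log2 differences of -0.29, 0.27 and -0.59, so their signs differed. Of these 3 members 1 was lower without overlap, and of the 27 others with a promoter entry 11. Over the whole table, 12.4% of the 371 tested genes that hold this pattern and 23.5% of the 9434 that lack it were lower without overlap. Their median log2 differences were 0.24 and -0.015. Psme1 holds its match just inside the transcript. Of the other patterns searched on both strands, CCAAT was found in 12 members and 37.4% of promoters, CCGGAAG in 13 and 8.86%, GCGGAAG in 10 and 5.77%, and CACGTG in 2 and 7.15%. TGACTCAGC, the first pattern with every base set, was found in 0 members and 0.454% of promoters, and the looser TGANNNNGC, which includes every match of TGACNNNGC, in 17 members and 41.3% of promoters. These patterns split the members less: 9 of 17 with TGANNNNGC and 3 of 13 without it were lower without overlap, and 7 of 13 with CCGGAAG and 5 of 17 without it.

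The beta ring had 5 of 7 genes lower without overlap (22.6% of all genes, 33.7% of those with a mean of at least 250) and a median log2 difference of -0.39. These included all 3 catalytic subunits. Psmb7 (chr2:38588046-38643952), the trypsin-like subunit, had normalized counts of 1148, 1233 and 1250.0 with vehicle, in replicate order, and of 947, 659 and 576 with doxorubicin. Every doxorubicin library was below every vehicle library, and replicate 1 was the nearest to them. Its mean was 1211 ± 54.4 (SD, n = 3) in vehicle and 727 ± 195 (n = 3) in doxorubicin cells, a log2 difference of -0.77 (SE 0.20; adjusted p 0.0859, limma with Benjamini-Hochberg). Without doxorubicin replicate 1 the log2 difference was -0.97 with a limma adjusted p of 0.00167. Without replicate 2 it was -0.71 and without replicate 3 -0.61, with limma adjusted p of 0.166 and 0.190.

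Psmb5 (chr14:54614120-54617995), the chymotrypsin-like subunit that is the main target of bortezomib, had normalized counts of 761, 585 and 668 with vehicle and 538, 535 and 362 with doxorubicin. The groups did not overlap, and replicate 3 was well below the other doxorubicin libraries. The means were 672 ± 88.1 and 478 ± 101 (SD, n = 3 each), with a log2 difference of -0.50 (SE 0.20; limma adjusted p 0.121). Psmb6 (chr11:70525324-70527858), the caspase-like subunit, had 925, 850 and 801 counts in vehicle and 745, 703 and 535 in doxorubicin libraries. Here too each treated library was below each control, and the log2 difference was -0.39 (SE 0.17; limma adjusted p 0.145). Without doxorubicin replicate 1, Psmb5 and Psmb6 had log2 differences of -0.60 and -0.48, with limma adjusted p of 0.0453 and 0.0484. Without doxorubicin replicate 3 they had -0.31 and -0.24, with limma adjusted p of 0.262 and 0.299. At equal totals Psmb5 had -0.20 and Psmb6 -0.087, and for both genes vehicle and doxorubicin values overlapped.

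Among the beta subunits with no proteolytic site, Psmb2 (chr4:126677637-126709715) had the smallest unadjusted p of all members, 0.00438 with limma (adjusted p 0.0859). It had 777, 683 and 631 normalized counts in vehicle and 521, 400.3 and 375 in doxorubicin libraries, without overlap, and a log2 difference of -0.70 (SE 0.17). Psmb3 was the other structural beta gene without overlap, at -0.29 (0.0099 at equal totals). Psmb1 had -0.35, and doxorubicin replicate 2, at 848 normalized counts, lay among its vehicle values of 815 to 869. Without that library Psmb1 had -0.53 and no overlap. Psmb4 had the smallest difference of the ring, -0.12 (limma adjusted p 0.637), with 885, 733 and 768 counts against 700, 870.3 and 641, so its groups were mixed. The 7 beta genes, whose products enter the ring in equal number, thus differed in their mRNA from -0.77 to -0.12.

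The alpha ring differed less, with a median log2 difference of -0.18 and 1 of 7 genes lower without overlap (22.6% of all genes). That gene was Psma1 (chr7:114264550-114276116), with 848, 785 and 737 normalized counts in vehicle and 676, 597 and 520 in doxorubicin libraries. Its treated values were all below its control values, and the log2 difference was -0.41 (SE 0.15; limma adjusted p 0.109). Psma4 was close to it in size, -0.38, but its vehicle replicate 3 (608) lay below doxorubicin replicate 1 (617). Psma3, Psma6, Psma7 and Psma2 had log2 differences of -0.23, -0.18, -0.12 and -0.10. Psma5 (chr3:108256926-108279952) had the smallest, -0.03 (SE 0.19; limma adjusted p 0.918), with 444, 361 and 370 counts in vehicle and 325, 485 and 352 in doxorubicin libraries. Doxorubicin replicate 2 was the highest of the 6 libraries for Psma5, Psma6 and Psma7, and replicates 1 and 3 were the lowest pair for all 3.

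**Figure D2:**
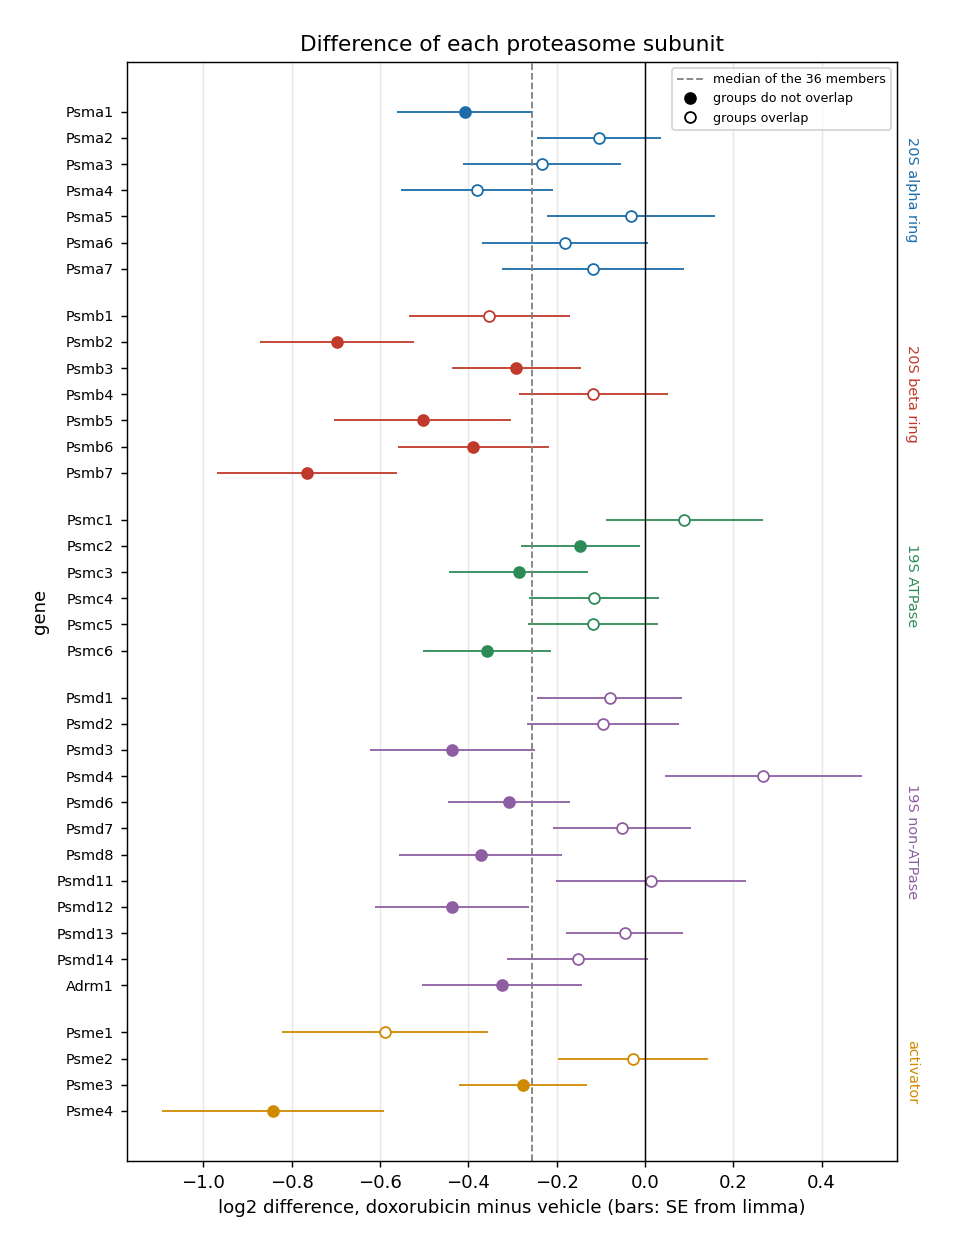
Log2 difference, doxorubicin minus vehicle, of each of the 36 proteasome genes (x axis) with the limma standard error as a bar; filled points are genes whose groups do not overlap, colours are subunit classes and the dashed line is the median, -0.25. The points furthest to the left are Psme4 (-0.84), Psmb7 (-0.77) and Psmb2 (-0.70), and Psmd4 (0.27) is furthest to the right.

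In the ATPase ring of the 19S particle, which unfolds substrates, 3 of 6 genes were lower without overlap (Psmc2, Psmc3 and Psmc6; 22.6% of all genes, 33.7% of those with a mean of at least 250), and the median log2 difference was -0.13. Psmc6 (chr14:45329823-45349074) had the most negative value, -0.36 (SE 0.14; limma adjusted p 0.124). Its normalized counts were 787, 936 and 866 in vehicle and 719, 683 and 617 in doxorubicin libraries, without overlap. At equal totals its difference was -0.056 and the groups overlapped. Psmc3 had 1604, 1749 and 1723 against 1416, 1537 and 1225, also without overlap, and a difference of -0.29 (0.016 at equal totals). Psmc2 was lower in every treated library too, with a difference of only -0.15 (0.15 at equal totals, -0.080 without doxorubicin replicate 3). Psmc4 and Psmc5 each had -0.12, with overlap. Psmc1 (chr12:100110202-100123364) had a positive difference of 0.09 (SE 0.18; limma adjusted p 0.740), from 906, 845 and 886 counts in vehicle and 801, 1172 and 869 in doxorubicin libraries. A single treated library, replicate 2, stood above the vehicle range for Psmc1, and replicate 1 stood below it. Without replicate 2 the log2 difference of Psmc1 was -0.07.

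The non-ATPase subunits form the lid and base of the 19S particle, and 5 of 12 were lower without overlap, near the 33.7% of genes with a mean of at least 250, with a median log2 difference of -0.12. Those 5 were Psmd3, Psmd6, Psmd8, Psmd12 and Adrm1. The scaffold subunit Psmd12 (chr11:107479528-107498036) had 781, 845 and 850 normalized counts in vehicle and 668, 694 and 487 in doxorubicin libraries. The treated values were all lower, with replicate 3 lowest, and the log2 difference was -0.44 (SE 0.17; limma adjusted p 0.121), or -0.28 without replicate 3. Psmd3, a further lid scaffold, had 952, 901 and 927 counts against 852, 694 and 543 and a difference of -0.44 (limma adjusted p 0.139), or -0.27 without doxorubicin replicate 3. Psmd8 and Psmd6 had differences of -0.37 and -0.31, and without doxorubicin replicate 3 that of Psmd8 was -0.22.

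Adrm1, Psmd14 and Psmd4, non-ATPase genes whose products act on ubiquitin, did not share a direction. Adrm1, a receptor for ubiquitin chains, had 632, 533 and 601 normalized counts in vehicle and 533, 523 and 371 in doxorubicin libraries. The second vehicle and first doxorubicin libraries were almost level, so the groups were only just apart, and the log2 difference was -0.32 (SE 0.18; limma adjusted p 0.229), or -0.15 without doxorubicin replicate 3. Psmd14, the deubiquitinase that removes the chain, had 387, 297 and 323 counts against 290.0, 337 and 277, with overlap and a difference of -0.15 (limma adjusted p 0.513). Psmd4 (chr3:95032688-95042614), another ubiquitin receptor, had 649, 721 and 632 counts in vehicle and 600, 1086 and 794 in doxorubicin libraries. Replicates 2 and 3 were above every vehicle library and replicate 1 below every one, giving the most positive difference of all members, 0.27 (SE 0.22; limma adjusted p 0.405). Without doxorubicin replicate 1 Psmd4 had a log2 difference of 0.48 with a limma adjusted p of 0.0573, and without replicate 2 it had 0.051 with a limma adjusted p of 0.857.

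The remaining non-ATPase genes had differences near 0 with overlapping groups. Psmd1 and Psmd2, the large base scaffolds, had -0.08 and -0.10, Psmd7, the inactive partner of Psmd14, had -0.05, and Psmd13 had -0.05. Psmd11, a lid subunit, had 0.01 (limma adjusted p 0.970), with 416, 422 and 500 normalized counts in vehicle and 391, 615 and 375 in doxorubicin libraries. As for Psmc1 and Psmd4, its highest value was in doxorubicin replicate 2.

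The 4 activator genes had the widest range of log2 differences of the 5 classes, from -0.84 to -0.03. Psme4 (chr11:30771775-30881150), which encodes PA200, had the most negative difference of all members. Its normalized counts were 2734, 3578 and 3307 in vehicle and 2515, 1508 and 1476 in doxorubicin libraries, so the groups did not overlap although replicate 1 came near the lowest vehicle library. The means were 3206 ± 431 and 1833 ± 591 (SD, n = 3 each), a log2 difference of -0.84 (SE 0.25; limma adjusted p 0.0859). Without doxorubicin replicate 1 it was -1.09, with a limma adjusted p of 0.00249. Without replicate 2 it was -0.73 and without replicate 3 -0.71, with limma adjusted p of 0.169 and 0.193. Erlec1, which overlaps Psme4 in the annotation, went from a mean of 414 to 278, and because the use of strand is not stated, reads in a shared stretch cannot be told apart.

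Psme1 and Psme2 encode the alpha and beta subunits of PA28, which form one ring in the cytosol and are known to be induced by interferon gamma. They lie next to each other on chromosome 14, yet their values differed. Psme1 (chr14:55578494-55581527) had 968, 862 and 756 normalized counts in vehicle and 792, 440 and 531 in doxorubicin libraries. Doxorubicin replicate 1 lay within the vehicle range and the other treated libraries below it, and the log2 difference was -0.59 (SE 0.23; limma adjusted p 0.119). Without replicate 1 it was -0.83 with a limma adjusted p of 0.00605. Without replicate 2 it was -0.40 and without replicate 3 -0.54, with limma adjusted p of 0.256 and 0.262. Emc9, which overlaps Psme1, went from a mean of 186 to 95.1, with the same limit on strand.

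Psme2 (chr14:55587440-55591101) had 424, 352 and 314 normalized counts in vehicle and 370, 308 and 390 in doxorubicin libraries. The groups overlapped throughout, with a log2 difference of -0.03 (SE 0.17; limma adjusted p 0.923). Psme2b, a near-identical copy, held 20.4 to 70.0 counts per library, and reads may be split between the copies. Psme3, the nuclear PA28 gamma, had 627, 652 and 656 counts against 494, 614 and 497, without overlap, and a difference of -0.28 (SE 0.15; limma adjusted p 0.205), or 0.025 at equal totals. The log2 ratio of Psme1 to Psme3 within a library differed by -0.31 between the groups, that of Psme2 to Psme3 by 0.25 and that of Psme1 to Psme4 by 0.25. All 3 ratios overlapped between groups, with exact two-sided permutation p of 0.5, 0.3 and 0.3 and adjusted values of 0.5, 0.45 and 0.45.

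The 3 doxorubicin libraries differed from the vehicle mean in different ways. In replicate 1 the members lay close together, with a median log2 difference of -0.21, an SD over the 36 genes of 0.113 and 31 genes below all vehicle libraries, where 34.5% of all genes were so. In replicate 2 the median was -0.07 but the SD was 0.385, with 19 genes below all vehicle libraries (40.3% of all genes). Above all vehicle libraries in replicate 2 were 7 members, against 4964 of 12475 genes: Psma5, Psma6, Psma7, Psmc1, Psmd4, Psmd7 and Psmd11. In replicate 3 the median was -0.40 and the SD 0.309, with 32 genes below all vehicle libraries (43% of all genes). Only Psmd4 was above them, against 5281 of 12475 genes. These SDs are spreads over genes and not errors of a mean. Replicate 1 had the smallest spread over all genes tested as well, with SDs of 0.441, 0.978 and 1.13 in replicates 1 to 3 and medians of -0.015, 0.002 and -0.006. For genes with a mean of at least 250 the SDs were 0.351, 0.859 and 0.995 and the medians -0.11, -0.09 and -0.21. The same 3 libraries had cardiomyocyte marker sums of 648031, 208314 and 179918, and whether these bear on the proteasome values was not tested.

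**Figure D3:**
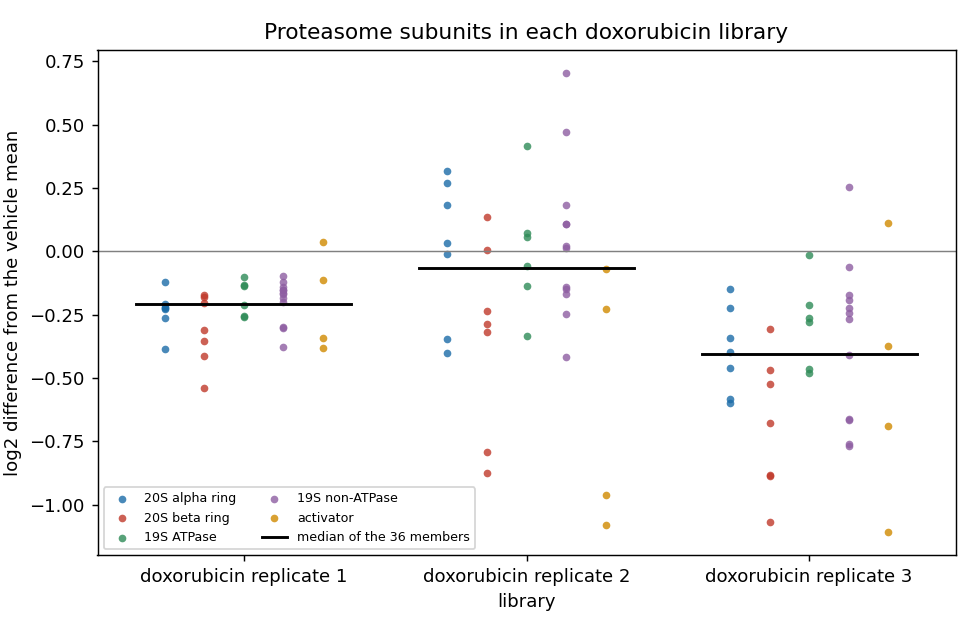
Log2 difference from the vehicle mean (y axis) of each of the 36 proteasome genes in each doxorubicin library (x axis), coloured by subunit class, with the median as a black line. The points are tight around -0.21 in replicate 1, spread on both sides of a median of -0.07 in replicate 2, and mostly below 0 around -0.40 in replicate 3.

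The libraries also fell into those with Xist RNA and those with Y-linked transcripts, unevenly over the groups. Among the Y-linked libraries (2 vehicle, 1 doxorubicin) the median log2 difference of the members was -0.09, with 23 negative and 13 positive. Among the Xist libraries (1 vehicle, 2 doxorubicin) it was -0.29, with 34 negative and 2 positive. Psmb7 had -0.85 and -0.76 in these comparisons, Psmb2 -0.86 and -0.51, and Psme4 -1.05 and -0.78. The groups of these 3 genes did not overlap, so any split of the libraries gives negative values and the signs test nothing. With the class as a term in limma over all 6 libraries, 0 members passed (lowest adjusted p 0.105), and the log2 differences were -0.81 for Psmb7, -0.69 for Psmb2 and -0.92 for Psme4.

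The interferon-inducible catalytic subunits, which replace the constitutive ones in the immunoproteasome, were compared with the members they replace. Psmb8 (chr17:34198195-34201454), the counterpart of Psmb5, had 118, 149 and 102 normalized counts in vehicle and 214, 196 and 401 in doxorubicin libraries, higher without overlap, with a log2 difference of 1.07 (SE 0.29; limma adjusted p 0.0859). Psmb9, the counterpart of Psmb6, had 62.7, 49.2 and 50.8 counts against 98.6, 87.2 and 126, also without overlap, with a difference of 0.92 (SE 0.21; limma adjusted p 0.0859). Psmb10, the counterpart of Psmb7, had 279.9, 283 and 280.1 counts against 280.4, 201 and 299, with overlap and a difference of -0.13 (limma adjusted p 0.620). The level of Psmb10 was thus similar in 5 libraries and lower in doxorubicin replicate 2.

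The log2 ratio of the inducible to the constitutive subunit does not depend on how a library was scaled. It was higher after doxorubicin by 1.58 for Psmb8 to Psmb5, by 1.32 for Psmb9 to Psmb6 and by 0.64 for Psmb10 to Psmb7. With 1 library left out these ranged from 1.07 to 1.87, from 1.03 to 1.49 and from 0.37 to 0.78. In all 3 pairs every doxorubicin library lay above every vehicle library. The exact two-sided permutation p was 0.1 for each, adjusted 0.1, which is the smallest that 3 libraries against 3 allow. Per transcript length, Psmb8 stood at 10.3% ± 3.20 of Psmb5 in vehicle and 34.4% ± 23.1 in doxorubicin cells (SD, n = 3). Psmb9 went from 3.72% ± 0.291 to 9.68% ± 3.66 of Psmb6, and Psmb10 from 20.6% ± 0.897 to 33.1% ± 11.2 of Psmb7. Of the Psmb10 pair, Psmb7 had the larger difference (-0.77 against -0.13).

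Within the Y-linked libraries the 3 ratios differed by 0.88, 0.99 and 0.37 on the log2 scale, doxorubicin minus vehicle. Within the Xist libraries they differed by 2.12, 1.48 and 0.81. The signs were fixed in advance, because no ratio overlapped between the groups. Macrophages and other leukocytes express the inducible subunits strongly, and the macrophage marker sum was 4122, 6630 and 15034 in doxorubicin replicates 1 to 3 against 2515 to 2723 in vehicle libraries. Its part in the ratios was not tested.

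**Figure D4:**
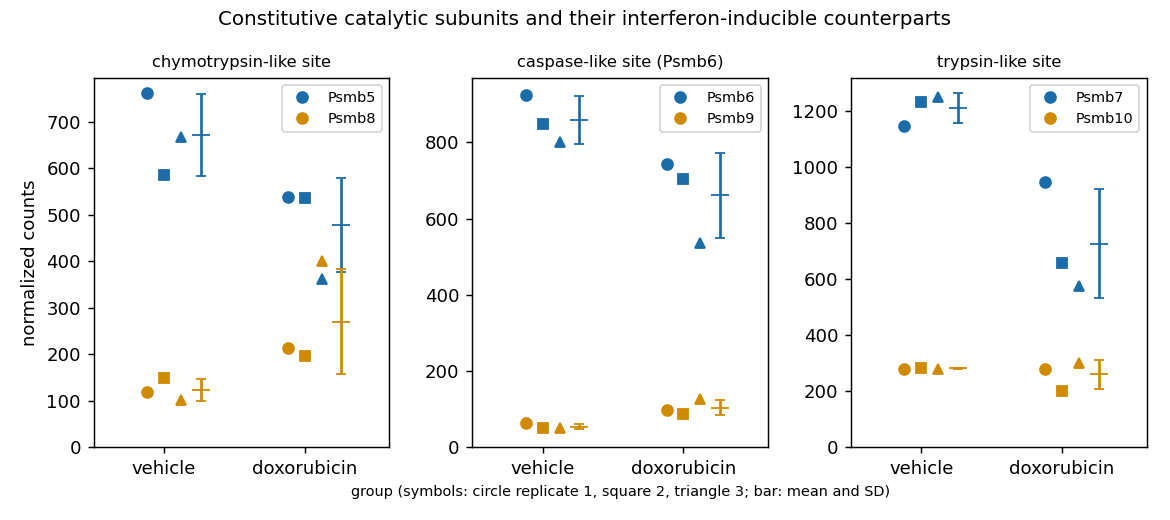
Normalized counts (y axis, from 0) of each constitutive catalytic subunit (blue) and its interferon-inducible counterpart (orange) in vehicle and doxorubicin libraries (x axis), with 1 symbol per library and the mean and SD as a bar. All blue symbols are lower after doxorubicin and those of Psmb8 and Psmb9 are higher, with Psmb8 above Psmb5 only in doxorubicin replicate 3 (401 against 362).

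Genes that assemble, regulate and feed the proteasome were taken from fixed lists. Of these 34 genes, 0 passed limma's test (0% of all genes), and 8 had an unadjusted p under 0.05 (35.9% of all genes). Differences were negative in 27 and positive in 7, with a median of -0.20. Without overlap 13 were lower (22.6% of all genes, 33.7% of those with a mean of at least 250) and 1 higher (19.2% and 17.2%). Without doxorubicin replicate 1, 8 of the 34 passed, all lower, a share near the 21.8% of all genes that passed as lower. Among them were Ecpas, Psmg1, Psmg2, Sem1, Ube3c, Ubqln4 and Vcp. Psmb8 and Psmb9 passed as well, both higher.

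Among the 8 assembly chaperones, Psmg1 and Psmg2, partners in building the alpha ring, had log2 differences of -0.66 and -0.73. Psmg2 had 221, 210.1 and 199.8 normalized counts in vehicle and 151, 137 and 96.9 in doxorubicin libraries, without overlap (limma adjusted p 0.0859). Pomp, which guides beta ring assembly, had 514, 510.0 and 441 counts against 421, 557 and 430.3, with overlap and a difference of -0.06 (limma adjusted p 0.794). Psmd10 had the most positive difference of this list, 0.27 (limma adjusted p 0.339), or 0.16 without doxorubicin replicate 3 and 0.57 at equal totals, and Psmd5 was the 1 gene higher without overlap, at 0.15.

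Of 12 regulators, 11 had negative differences (50.4% of all genes) and 6 were lower without overlap (22.6%). Their means ran from 142 to 4984. Among the 5006 genes with a mean of at least 250, 3003 were negative and 33.7% were lower without overlap. Nfe2l1 itself had 5273, 5637 and 6074 normalized counts in vehicle and 4962, 4518 and 3439 in doxorubicin libraries, lower without overlap, with a difference of -0.41 (SE 0.22; limma adjusted p 0.214), or 0.0083 after quantile normalization and -0.26 without doxorubicin replicate 3. Ddi2, the protease that activates the NFE2L1 protein, had the only positive value, 0.21 (limma adjusted p 0.434), or 0.078 without doxorubicin replicate 2 and 0.51, without overlap, at equal totals. Ecpas, a scaffold that binds the 26S proteasome, had the most negative one, -0.70 (limma adjusted p 0.0892), with 1436, 1816 and 1871 counts against 1411, 983 and 825.

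In the list of ubiquitin supply and delivery, 10 of 14 genes had negative differences (50.4% of all genes) and 5 were lower without overlap, near the 33.7% of genes with a mean of at least 250. Ubb, a stress-responsive polyubiquitin gene, had normalized counts of 4235, 3736 and 3687 with vehicle and 3975, 7318 and 4465 with doxorubicin, overlapping, with a difference of 0.38 (limma adjusted p 0.325). Without doxorubicin replicate 2 it was 0.12, and at equal totals 0.69 and after quantile normalization 0.81, where the groups no longer overlapped. Its highest value was in doxorubicin replicate 2, the library in which Psmd4, Psmc1 and Psmd11 were also highest. The tissue-restricted subunit gene Psma8 was below the minimum for testing, with at most 6.51 counts, and Psmb11 was listed at 0 in all 6 libraries.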

How the data were processed

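Total RNA of 6 libraries, 3 vehicle and 3 doxorubicin, was sequenced. Per the labels' protocols, reads were aligned to mm10 with RefSeq genes, and STAR 2.6.1a and Salmon are named in the submitters' processing notes. How reads were counted, whether strand was used and how values were normalized is not given in the sources used here, and the authors deposited a signal that is never negative, normalized counts per gene and library. Between 80.0% and 92.5% of a library's low values lay near whole multiples of a step, so whole reads were not recovered and no count test was used.

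Values were used as deposited. Genes with a mean of at least 10 were tested on log2(value + 1), a pseudocount of 1, with limma 3.58.1 in R 4.3.3, two-sided, with Benjamini-Hochberg adjustment over all genes and a threshold of 0.05. Differences are on that scale, SD is over 3 libraries, and p-values measure the spread between these libraries. The script was tested on simulated data with the same noise in every library, which does not cover a library that deviates from its group. Ratios within a library were tested by exact permutation, adjusted over 3 ratios per family. Plots used Python 3.11.15 and matplotlib 3.10.9. Coordinates and promoters are RefSeq GRCm38.p6, counted from 1, and transcript lengths are from GENCODE.

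Genes were named by rule: in each of 5 classes the most positive and most negative member, the member with the smallest unadjusted p, a fixed set (Psmb5, Psmb6, Psmb7, Psmd4, Adrm1, Psmd14, Psme1 to Psme4, Psmb8, Psmb9, Psmb10, Nfe2l1 and Pomp), and the most positive and most negative gene of each outside list. Other members are given as values. Paaf1, also listed, was not analysed here. A gene that this rule names is not reported here. The members, lists and patterns were chosen with earlier results of these data known. Alternatives were other pseudocounts, filters, scalings, moderation, library weights, a replicate block, a covariate for Xist or Y-linked RNA, and leaving out each library. The background of genes with a mean of at least 250 was added after seeing the data.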

Additional observations from a re-analysis of the deposited data

How the results depend on the processing

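With all 6 libraries kept, the 0 called genes became 4272 (1954 higher, 2318 lower) with library weights, where 6 members and 8 of the other pathway genes passed. Leaving out 1 library gave 0 to 5127 called genes, 0 to 8 members and 0 to 10 other pathway genes, the highest in each case without doxorubicin replicate 1. Without doxorubicin replicate 2, 1 gene passed. Members lower without overlap numbered 16 to 28 when 1 library was left out (28 without doxorubicin replicate 2, where 28.1% of all genes were so), 2 at equal totals (10.1% of all genes) and 9 after quantile normalization (21.6%). Members higher without overlap numbered 0 to 1 with 1 library left out, the 1 being Psmd4 without doxorubicin replicate 1, and 1 at equal totals. The cause was not tested.

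Scaling the libraries to equal totals moved the median of all genes to 0.29 and that of the members to 0.047, so that 15 members were negative and 21 positive. Relative to all genes the members' median was -0.25 both as deposited and at equal totals, a scaling that shifts all genes nearly alike and cannot test this gap. After quantile normalization it was -0.11 relative to all genes (members -0.14). Leaving out 1 library gave members' medians of -0.35 to -0.14. Signs turned at equal totals for Psma2 (0.20), Psma3 (0.068), Psma5 (0.27), Psma6 (0.12), Psma7 (0.18), Psmb3 (0.0099), Psmb4 (0.18), Psmc2 (0.15), Psmc3 (0.016), Psmc4 (0.19), Psmc5 (0.18), Psmd1 (0.22), Psmd2 (0.21), Psmd7 (0.25), Psmd13 (0.26), Psmd14 (0.15), Psme2 (0.27), Psme3 (0.025), Psmb10 (0.17) and Pomp (0.24). They turned after quantile normalization for Psma5 (0.0072), Psmd1 (0.086), Psmd2 (0.11), Psmd7 (0.034), Psmd13 (0.0061), Psme2 (0.014) and Nfe2l1 (0.0083). With library weights they turned for Psma5 (0.15), Psma7 (0.0095), Psmb4 (0.017), Psmd7 (0.056), Psmd13 (0.0056) and Pomp (0.030), and with the Xist or Y covariate for Psma5 (0.074), Psma7 (0.030) and Pomp (0.035).

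When 1 library was left out, differences that changed sign ranged from -0.21 to 0.083 for Psma5, -0.31 to 0.024 for Psma7, -0.075 to 0.20 for Psmc1, -0.17 to 0.0083 for Psmd7, -0.21 to 0.14 for Psmd11, -0.089 to 0.010 for Psmd13, -0.13 to 0.089 for Psme2, -0.24 to 0.044 for Psmb10 and -0.19 to 0.0072 for Pomp. The 3 ratios of inducible to constitutive subunit stayed positive with a pseudocount of 1 and with 1 library left out. Leaving out a library could not turn their sign, because no ratio overlapped between the groups. Quantile normalization, library weights and the Xist or Y covariate were not applied to the ratios.

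Samples of the 2 groups share replicate numbers, and same-numbered libraries correlated at -0.128, 0.0331 and -0.0928 in their deviations. Differently numbered libraries correlated at -0.183 to 0.223. With 3 libraries per group these values show no sign of a pairing by number but cannot exclude one. A replicate block gave 0 called genes and 0 members and changed no call. Every doxorubicin library had fewer estimated reads than every vehicle library, so depth and treatment cannot be told apart.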
